A study of Arabidopsis thaliana with 357 samples.

Results

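The 7 genes described here encode enzymes that make or use reactive oxygen species at the outer face of the Arabidopsis leaf cell: the NADPH oxidases RBOHD (AT5G47910) and RBOHF (AT1G64060), and the class III peroxidases PRX33 (AT3G49110), PRX34 (AT3G49120), PRX71 (AT5G64120), PER4 (AT1G14540) and PER5 (AT1G14550). They were taken by their gene codes from a table of 33600 genes, in a choice made with earlier results of these data known. Counts of calls among them are thus descriptive. Leaves of 17 genotypes in the Col-0 background were profiled by 3' Tag-Seq, which counts 1 tag near the 3' end of each transcript, at 7 time points (untouched leaves at 0 h, then 1, 2, 3 and 5 h, and later 9 h and 18 h, after syringe infiltration of 1 µM flg22). The peptide flg22 is a stretch of bacterial flagellin that the receptor FLS2 detects. Each of the 119 groups of genotype and time point had 3 libraries, each pooling 12 leaves from 4 experiments, which gave 357 libraries. The 16 combinatorial genotypes covered all states, intact or mutated, of DDE2, EIN2, PAD4 and SID2, genes that stand for the jasmonate, ethylene, PAD4 and salicylate signaling sectors. A capital letter marks an intact sector and a small letter a mutated one (allele dde2-2 for J, ein2-1 for E, pad4-1 for P and sid2-2 for S), in the order J, E, P, S, so that JEPS is wild type and jeps is the quadruple mutant. The other genotype, fls2, had all 4 sectors intact but lacked the receptor. All plants were 31 to 32 days old under a 12 h photoperiod, and leaves of stages 7 to 9 were used. The 0 h leaves were not infiltrated. By the study's account, the 1 to 5 h leaves were harvested in sequence, and those of 0, 9 and 18 h at other times of day. Infiltration, time since 0 h and time of day thus cannot be told apart in a change from 0 h within a genotype. The fls2 leaves, infiltrated with the same solution, served as the reference.

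Libraries held 372525 to 5130803 reads (median 1275620), and 26275 genes had a read. Counts are given as normalized counts, that is, scaled so that the 90th percentile of the counts in every library was 300; a difference is a log2 difference of such levels with its standard error (SE). Of the 12296 genes that passed the filter on low counts, 5 were among these 7 (RBOHD, RBOHF, PRX34, PRX71 and PER4). PRX33, with reads in 211 libraries, and PER5, with reads in 38, did not pass and are described by their counts. All 8 leaf photosynthesis marker genes had reads in all 357 libraries, and SAG12, a marker of senescent leaf, had none. The sum of the photosynthesis markers fell in JEPS from a median normalized count of 375700 at 0 h to 17461 at 5 h and was 80589 at 18 h, whereas in fls2 it was 383281, 135222 and 324517 at the same times. The part of this shift in the levels below was not tested, and in whole leaves a change in the number of cells of a type cannot be told apart from a change in RNA per cell. JEPS and fls2 libraries of 1 time point lay in different sequencing lanes, but over all 357 libraries the lanes link the groups, and with a lane term fitted there, an alternative added after the data had been seen, all 19 calls for JEPS and all 11 for jeps against fls2 given below held.

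RBOH proteins sit in the plasma membrane and pass electrons from NADPH to oxygen outside the cell, which gives superoxide and then hydrogen peroxide; RBOHD is known as the main source of the oxidative burst within minutes of flg22 perception, and RBOHF as a partner in stress and development. Class III peroxidases are secreted to the cell wall, where they can either use hydrogen peroxide to cross-link wall polymers or, in another reaction, produce it. PRX33 and PRX34 are the pair best known for peroxidase-dependent hydrogen peroxide in Arabidopsis immunity, PRX71 is known from wall damage and lignification, and PER4 and PER5 are neighbours on chromosome 1.

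PRX33 and PRX34 lie near each other on chromosome 3 (TAIR10.1 chr3:18200587-18203265 and chr3:18207651-18210333, both on the plus strand), and their coding sequences were identical at 963 of 1062 aligned bases (90.7%). Their last 120 coding bases are shown because reads from so similar a pair could be assigned to the wrong copy; capitals mark the 7 bases at which they differ.
PRX33: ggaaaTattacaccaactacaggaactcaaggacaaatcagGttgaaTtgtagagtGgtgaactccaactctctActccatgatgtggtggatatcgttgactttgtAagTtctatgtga
PRX34: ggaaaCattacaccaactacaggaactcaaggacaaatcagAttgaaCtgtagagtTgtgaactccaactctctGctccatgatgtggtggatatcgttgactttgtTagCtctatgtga
In the last 300 bases of the transcripts, where tags are expected, no stretch of 30 or of 50 bases of any of the 7 genes occurred in the transcript of another gene. The coding bases shown share runs longer than 30 bases and so lie at least in part outside that window. Within it, PRX33 and PRX34 also shared no stretch of 50 bases when 2 mismatches were allowed, nor did PER4 and PER5, whose coding sequences were 73.6% identical. Shorter stretches were not searched with mismatches. RBOHD and RBOHF were 62.3% identical.

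The 250 bases upstream of the start of RBOHD, PRX71 and PER4, the 3 genes that stood highest above fls2 at 1 h, are shown in the direction of transcription with the W-box core TTGAC, the motif bound by WRKY transcription factors, in capitals where it occurs on either strand (as TTGAC or GTCAA). The sequences are from RefSeq, build TAIR10.1, at chr5:19396791-19397040 (plus strand), chr5:25661008-25661257 (minus strand) and chr1:4975706-4975955 (minus strand).
RBOHD: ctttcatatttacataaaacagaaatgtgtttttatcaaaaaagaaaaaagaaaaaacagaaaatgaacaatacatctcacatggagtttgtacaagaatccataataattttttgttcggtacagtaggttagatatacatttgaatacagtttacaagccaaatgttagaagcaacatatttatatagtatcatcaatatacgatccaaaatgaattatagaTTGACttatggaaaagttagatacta
PRX71: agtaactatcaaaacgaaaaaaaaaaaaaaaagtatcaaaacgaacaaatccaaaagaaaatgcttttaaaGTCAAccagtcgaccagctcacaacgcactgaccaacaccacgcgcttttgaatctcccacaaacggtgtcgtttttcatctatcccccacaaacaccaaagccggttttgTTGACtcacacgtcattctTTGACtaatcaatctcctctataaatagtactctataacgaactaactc
PER4: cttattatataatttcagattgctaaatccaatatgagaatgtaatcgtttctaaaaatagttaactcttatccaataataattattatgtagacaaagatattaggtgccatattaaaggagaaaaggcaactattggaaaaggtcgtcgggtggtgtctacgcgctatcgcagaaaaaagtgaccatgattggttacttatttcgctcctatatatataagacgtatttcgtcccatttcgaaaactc
RBOHD held 1 core, 26 bases before the start, PRX71 held 3 (at 49, 68 and 179 bases) and PER4 none. Among the other members PRX34 and PER5 held 2 each, and RBOHF and PRX33 none. Of 27443 Arabidopsis promoters of the same length, 44.9% held 1 or more, 14.1% held 2 or more and 3.38% held 3 or more. The GCC box AGCCGCC, searched on both strands, was in 0.587% of promoters and in none of the 7. A match is a run of letters in this window and says nothing of binding.

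In JEPS, 4 of the 5 tested genes responded more strongly than in fls2 at 1 or more times, and RBOHF did not pass the test. The response was the log2 change from 0 h, and it was compared between JEPS and fls2 by edgeR's quasi-likelihood test over all 357 libraries, with Benjamini-Hochberg adjustment over all genes and 6 times; a call needed an adjusted p under 0.05 and a difference above 1 in size. Of 30 comparisons of these genes, 19 were called, all of them higher in JEPS. From 1 h to 18 h the genes called numbered 4, 3, 3, 3, 2 and 4 of 5, where 6.07%, 6.8%, 9.15%, 11%, 9.13% and 9.66% of the 12296 genes tested were called higher. In jeps, compared with the same fls2 libraries, 11 of 30 were called, again all higher, and numbered 2, 2, 3, 2, 1 and 1 of 5 where 2.98%, 4.52%, 8.23%, 9.93%, 6.68% and 2.81% of all genes were called higher. PER4 gave 4 of the 19 calls in JEPS and 2 of the 11 in jeps, and these rest on 1 read in untouched fls2 leaves. None of the 5 was called between untouched fls2 and JEPS leaves (0 calls by edgeR and by DESeq2, and 0 at an unadjusted p under 0.05 by edgeR, the lowest being 0.31), where 0.00813% of all genes, 1 gene, was called. Within fls2 itself 14 of 30 comparisons with 0 h were called, all of them higher, and numbered 3, 2, 2, 2, 3 and 2 of 5 where 17.8%, 17.5%, 12.6%, 8.73%, 8.75% and 2.98% of all genes were called higher.

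**Figure D1:**
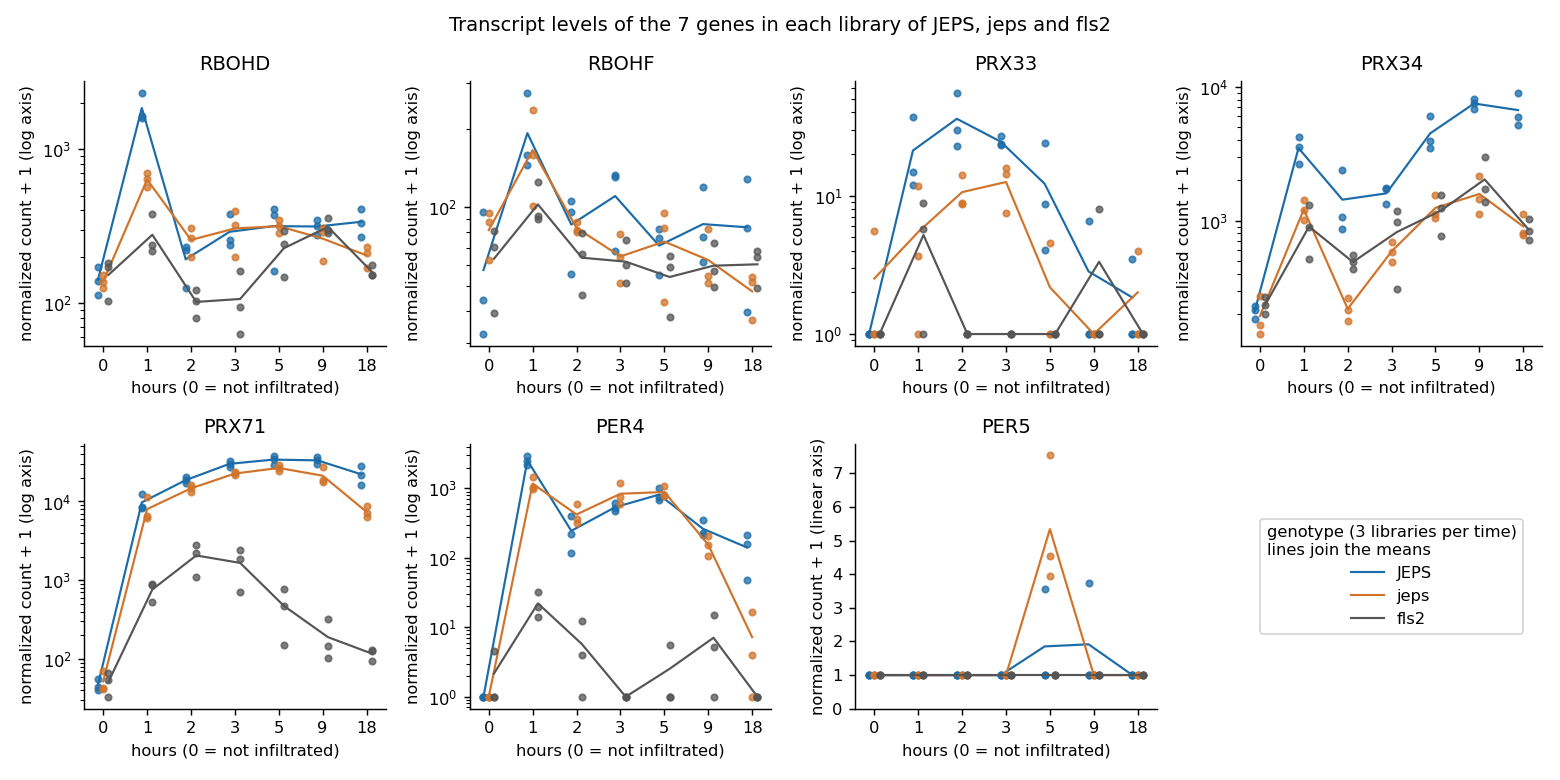
Normalized counts + 1 of each of the 7 genes (vertical axis, log scale except for PER5) against hours after infiltration in JEPS, jeps and fls2; points are the 3 libraries of a group and lines join the group means. RBOHD and PER4 were highest at 1 h in JEPS, PRX71 stayed between 16288 and 37985 in JEPS from 2 h to 18 h, and PRX33 did not exceed 54 in JEPS.

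RBOHD (chr5:19397041-19402061), the oxidase of the flg22 burst, rose sharply at 1 h and was back near its untreated level at 2 h. In JEPS its 3 libraries read 171, 111 and 139 at 0 h, 2322, 1657 and 1595 at 1 h, and 219, 125 and 230 at 2 h. In fls2 they read 181, 102 and 171 at 0 h and 378, 216 and 237 at 1 h, and in jeps 124, 150 and 136 at 0 h and 699, 636 and 571 at 1 h. All 48 libraries of the combinatorial genotypes at 1 h (514 to 2354, median 1307) thus lay above the highest fls2 library, which 2.72% of all tested genes showed at that time.

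The response of RBOHD in JEPS exceeded that in fls2 by 2.87 (SE 0.41, adjusted p = 2.4e-09, edgeR) at 1 h, 1.09 (SE 0.42, adjusted p = 0.045) at 2 h, 1.59 (SE 0.42, adjusted p = 0.0019) at 3 h and 1.22 (SE 0.42, adjusted p = 0.023) at 18 h. At 5 and 9 h the differences were 0.62 and 0.16 and did not pass. At 2 h the JEPS level was close to that at 0 h, and the fls2 libraries, at 121, 78.8 and 102, read lower than at 0 h, by a log2 change of -0.59 that did not pass. In jeps the excess over fls2 was 1.34 (SE 0.42, adjusted p = 0.015), 1.48 (SE 0.43, adjusted p = 0.0076) and 1.66 (SE 0.43, adjusted p = 0.0021) at 1, 2 and 3 h. In fls2, RBOHD was called above 0 h only at 9 h, at 1.02 (SE 0.29, adjusted p = 0.0034), which was 0.84 without replicate 2, 0.98 under another scaling and 0.77 with the lane term over all libraries and then fell short of the size limit of 1; with that lane term the value at 1 h, 0.87 without it, was called (1.03, adjusted p = 8.7e-05). Without replicate 1 the JEPS calls at 2, 3 and 18 h (adjusted p = 0.19, 0.12 and 0.19) and all 3 jeps calls (0.14, 0.19 and 0.16) were lost, and without replicate 3 so were those at 2 and 18 h in JEPS (0.34 and 0.18) and at 1 and 2 h in jeps (0.2 and 0.14). With the replicate number as a block the call at 2 h in JEPS was lost (adjusted p = 0.071), while the one at 1 h held under every alternative, between 2.78 and 3.22.

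**Figure D2:**
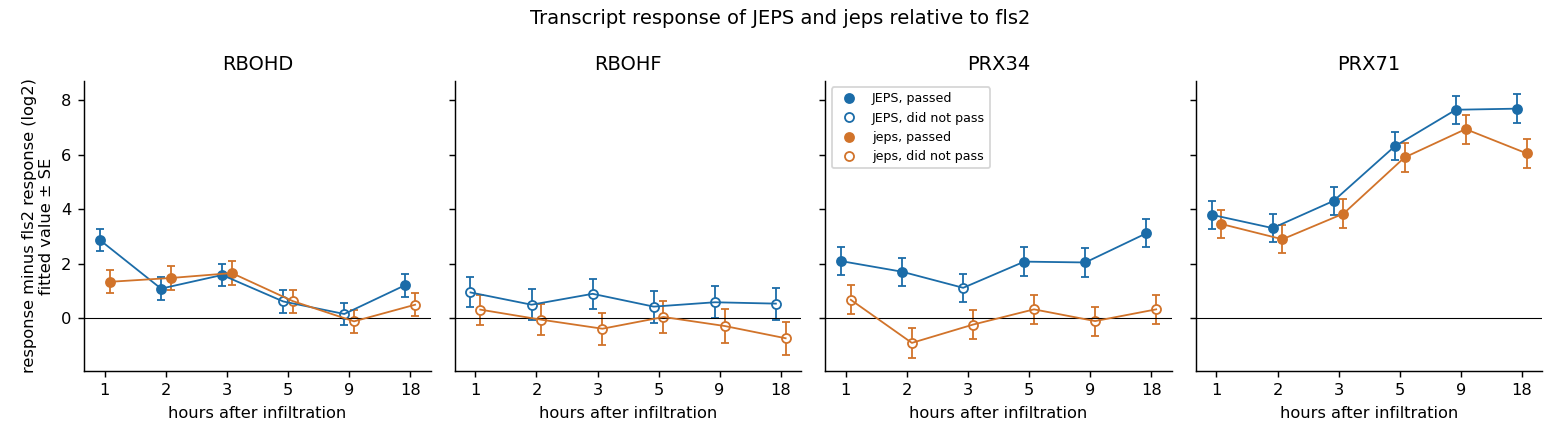
Response (log2 change from 0 h) minus the response of fls2, with its SE, for the tested genes other than PER4 at each time in JEPS and jeps; filled points passed the test. PRX71 stood highest among the values with an SE, reaching 7.69 in JEPS at 18 h, and PRX34 was called in JEPS but at no time in jeps.

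The 1 h peak of RBOHD differed with the state of EIN2, the ethylene signaling protein. By the study's account, untouched leaves of every genotype with mutated EIN2 had less FLS2 transcript, a gap that was closed by 1 h. The study concluded that this had no strong impact under its conditions. The part of this difference in the EIN2 effects given here was not tested. The 24 libraries with EIN2 intact read 1295 to 2354 (median 1740) and the 24 without it 514 to 1319 (median 782), so that 23 of 24 lay above the highest library without EIN2, and the level was higher with EIN2 in 8 of 8 pairs of genotypes that differ in EIN2 alone. Ordered by mean, the 8 genotypes with EIN2 ran from jEPS (2121 ± 211, SD, n = 3) down to JEps (1518 ± 95.1), and the 8 without it from JePS (1023 ± 272) down to jeps (636 ± 63.8). The effect of a sector on the level was taken as the mean log2 level of the 8 genotypes with the gene minus that of the 8 without it, with adjustment over all genes and 28 comparisons of 4 sectors at 7 times and a call at an adjusted p under 0.05. For EIN2 at 1 h it was 1.18 (SE 0.09, adjusted p = 1.1e-25, edgeR), in a comparison where 23.8% of all genes were called in either direction.

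At 3 h the EIN2 effect on RBOHD had the opposite sign: 0 of 8 genotype pairs were higher with EIN2, the medians were 291 with it and 425 without it, and the effect was -0.45 (SE 0.10, adjusted p = 0.00013), where 25.7% of all genes were called. It was -0.32 (adjusted p = 0.014) at 5 h and 0.43 (SE 0.10, adjusted p = 0.00042) at 18 h, when 8 of 8 pairs were again higher with EIN2; 16% and 28.7% of all genes were called at these times. These are effects on the level. On the change since 0 h, a comparison added after the data had been seen, the values at 3 and 5 h did not pass. They were -0.36 (adjusted p = 0.18, edgeR) and -0.22 (adjusted p = 0.56). The EIN2 effect at 1 h exceeded that at 3 h by 1.63 (SE 0.13, adjusted p = 1e-23), a comparison added after the data had been seen, in which 22.3% of all genes were called. The effect of DDE2, the jasmonate synthesis enzyme, was -0.38 (adjusted p = 0.0032) at 2 h, with 0 of 8 pairs higher, and 0.27 (adjusted p = 0.047) at 9 h, where 25.6% and 8.82% of all genes were called. That of PAD4, a lipase-like immune regulator, was 0.31 (adjusted p = 0.017) at 3 h and 0.27 (adjusted p = 0.044) at 5 h, where 7.27% and 9.47% were called. SID2, the salicylate synthesis enzyme, had no called effect on RBOHD. The call for DDE2 at 2 h was lost without replicate 1 (adjusted p = 0.24), that for EIN2 at 5 h without any 1 replicate (0.052, 0.15 and 0.06), that for DDE2 at 9 h likewise (0.21, 0.061 and 0.3), that for PAD4 at 3 h without replicate 1 or 2 (0.27 and 0.096) and that at 5 h without replicate 1 or 3 (0.25 and 0.44). With the replicate block, which compares libraries of shared experiments, 4 further effects were called, PAD4 at 1 h (0.23) and 2 h (0.25), SID2 at 1 h (0.19) and EIN2 at 2 h (-0.26).

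**Figure D3:**
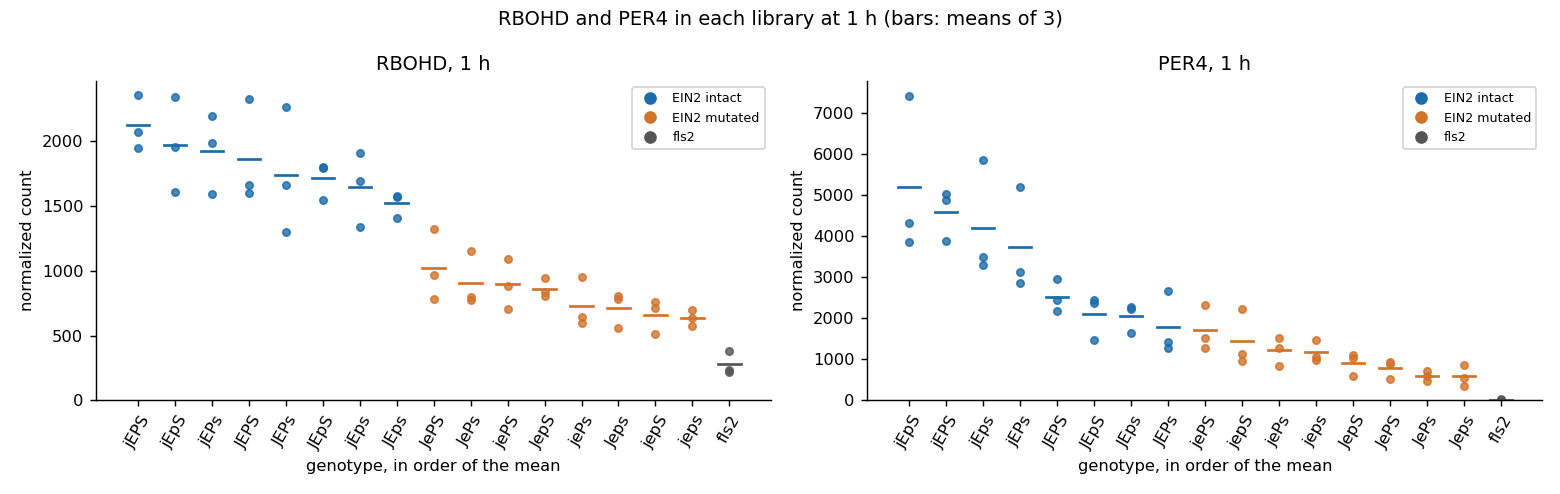
Normalized counts of RBOHD and PER4 at 1 h in every library, by genotype in order of the mean (bars), with color for the state of EIN2. For RBOHD all 8 genotypes with EIN2, from 1518 up, stand above all 8 without it, which reach 1023.

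RBOHF (chr1:23769774-23776984), the companion oxidase, was measured in all 357 libraries and was not called in the response of JEPS or jeps against fls2, in fls2 against 0 h or in a mutant against JEPS. In JEPS its libraries read 42.9, 31.6 and 94.7 at 0 h and 144, 157 and 273 at 1 h, and in fls2 91.3, 89.1 and 124 at 1 h. At 1 h the JEPS libraries were all above those of fls2, as for 12.9% of all tested genes, but at 0 h they were spread from 31.6 to 94.7, and the difference in response was 0.95 (SE 0.55, adjusted p = 0.21, edgeR); at the other times it was 0.43 to 0.90. At the level of sectors, RBOHF was higher with DDE2 at 3 h (0.64, SE 0.14, adjusted p = 6.4e-05) and at 9 h (0.53, SE 0.14, adjusted p = 0.0029), with 8 of 8 pairs higher at both times, where 23% and 8.82% of all genes were called. It was lower with EIN2 at 5 h (-0.44, adjusted p = 0.024) and 9 h (-0.47, adjusted p = 0.01), where 16% and 11.9% of all genes were called. At 9 h the genotype means ran from 164 ± 79.8 (SD, n = 3) in JePS to 44.5 ± 30.1 in jEpS. Only the effect of DDE2 at 3 h held without each replicate; the adjusted p of the others rose to between 0.06 and 0.26 without the replicate that cost the call. With the block, PAD4 at 3 h was also called (0.29, adjusted p = 0.018), and the EIN2 effect at 1 h exceeded that at 3 h by 0.38 (adjusted p = 0.042; 0.34 and 0.17 without the block).

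PRX33, the copy of the peroxidase pair with 1027 reads in all libraries together, had no read in JEPS at 0 h. The JEPS libraries read 13.7, 35.9 and 10.9 at 1 h, 54, 21.8 and 28.8 at 2 h, 22.4, 22.3 and 25.8 at 3 h and 22.8, 3.03 and 7.69 at 5 h. In fls2 it had 4 reads over the 3 libraries at 1 h, 1 at 9 h and none at the other times. Reads were present in 5 of 48 combinatorial libraries at 0 h, in 45, 45 and 46 at 1, 2 and 3 h, and in 35, 21 and 11 at 5, 9 and 18 h, so that detection was highest from 1 to 3 h. At 2 h the 24 libraries with EIN2 read 3.49 to 62.5 (median 28.3) and the 24 without it 0 to 20.8 (median 7.79), with 20 of 24 above the highest without and 8 of 8 genotype pairs higher. In a fit without the filter on low counts, over 26275 genes, the effect of EIN2 on PRX33 was 1.39 (SE 0.31, adjusted p = 0.00011, edgeR), 1.63 (SE 0.31, adjusted p = 9.7e-07), 1.47 (SE 0.33, adjusted p = 7.3e-05) and 1.67 (SE 0.48, adjusted p = 0.0018) at 1, 2, 3 and 5 h, and no other effect of a sector on PRX33 was called there. These values rest on counts of at most 32 reads per library.

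PRX34, the main wall peroxidase of the pair, rose in every genotype, fls2 included. Its rise was called larger in JEPS than in fls2 at 5 of 6 times, while in jeps no excess over fls2 was called. Its JEPS libraries read 214, 182 and 229 at 0 h, 3541, 2661 and 4214 at 1 h, 2364, 856 and 1070 at 2 h, and 6815, 8061 and 7555 at 9 h. In fls2 they read 269, 198 and 232 at 0 h, 1304, 511 and 887 at 1 h, and 1374, 2992 and 1710 at 9 h. In both genotypes the mean thus had an early maximum at 1 h, was lower at 2 h and rose again to 9 h. These times were not tested against each other, and the fls2 libraries at 1 h (511 to 1304) and 2 h (430 to 548) overlapped. The JEPS libraries lay above those of fls2 at 1, 2 and 9 h (as for 12.9%, 18.1% and 23% of all tested genes) and again at 18 h (20.3%). At 18 h JEPS stayed high, at 5197, 8944 and 5882, while fls2 read 833, 1022 and 715.

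Within fls2 the rise of PRX34 over 0 h was called at all 6 times, at 1.95, 1.06, 1.81, 2.34, 3.12 and 1.87 from 1 h to 18 h; the 2 h call was lost with the block (adjusted p = 0.063, edgeR), without any 1 replicate (0.065, 0.057 and 0.11) and under either other scaling. The response in JEPS exceeded it by 2.1 (SE 0.52, adjusted p = 0.00084) at 1 h, 1.71 (adjusted p = 0.0082) at 2 h, 2.08 (adjusted p = 0.00095) at 5 h, 2.05 (adjusted p = 0.0012) at 9 h and 3.12 (SE 0.52, adjusted p = 5.1e-07) at 18 h, and at 3 h by 1.12 (adjusted p = 0.11), which passed only with the lane term over all libraries (1.15, adjusted p = 0.0068). The 2 h call was lost without replicate 1 (1.14, adjusted p = 0.23) or replicate 3 (adjusted p = 0.057). In jeps no excess over fls2 was called at any time (-0.90 to 0.68): its libraries read 1205, 1009 and 1411 at 1 h, 177, 213 and 264 at 2 h and 777, 1126 and 803 at 18 h. At 2 h the 3 jeps libraries lay below the 3 of fls2, whose range was 430 to 548, as for 27.5% of all tested genes, and the difference in response of -0.90 was called only with a lane term on the libraries compared (-1.16, adjusted p = 0.049).

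Of the 5 tested genes PRX34 had the most sector effects, 18 of 28. Its level was higher with DDE2 at every time from 1 h to 18 h, by 0.75, 1.1, 1.09, 0.97, 1.00 and 1.05 (SE 0.12 to 0.13, largest adjusted p = 2e-07, edgeR), and 8 of 8 genotype pairs were higher with DDE2 at each of these times; at 3 h the arms read 873 to 2290 with DDE2 and 456 to 1028 without it. The share of all genes called for DDE2 was 20.9%, 25.6%, 23%, 13.4%, 8.82% and 6.43% at those times. These 6 effects held under every alternative. It was higher with PAD4 at every time from 2 h to 18 h, by 0.59, 0.46, 0.76, 0.91 and 0.82 (6.13%, 7.27%, 9.47%, 17.4% and 26.7% of all genes called), and with SID2 at 5, 9 and 18 h, by 0.45, 0.86 and 0.74 (3.41%, 20.2% and 28.8%). With EIN2 it was higher at 1 h (0.56), 2 h (0.70) and 18 h (0.51), with 8 of 8 pairs higher at each, where 23.8%, 36.4% and 28.7% of all genes were called. In untouched leaves it was lower with EIN2 (-0.40, SE 0.14, adjusted p = 0.034), where 4.73% of all genes were called and 1 of 8 pairs was higher. That effect at 0 h was lost without replicate 2 (adjusted p = 0.072) or 3 (0.48), and those of PAD4 at 2 h without replicate 1 (0.06) and at 3 h without replicate 1 (0.07) or 3 (0.14). With the block, DDE2 (0.33) and PAD4 (0.28) at 0 h, PAD4 at 1 h (0.17), SID2 at 2 h (0.31) and EIN2 at 9 h (-0.27) were also called.

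By genotype, PRX34 at 9 h was highest in JePS, at 12822 ± 2447 (SD, n = 3), above JEPS at 7477 ± 627 with no overlap of their libraries (as for 6.58% of all tested genes), and lowest in jeps at 1578 ± 523. In untouched leaves the mean of JePS was already the highest, at 384 beside 208 in JEPS. The response of JePS was not called against that of JEPS at any time. At 18 h it was highest in JEPS (6674) and lowest in jeps (902), a ratio of 7.4. Of the 15 mutants' responses compared with that of JEPS at 6 times, 90 comparisons a gene, 12 were called for PRX34, all of them weaker, among 0.691% called over all genes and comparisons. The calls were 4 in jePS, 3 in jeps, 2 in jepS and 1 each in JePs, jEps and Jeps, and none was in a single mutant. EIN2 was mutated in all but that of jEps, and DDE2 in all but those of JePs and Jeps. Their values are given in the closing section. RBOHD had 1 such call, jeps at 1 h, and RBOHF and PRX71 had none in 90 comparisons each; those of PER4 had no usable size, since JEPS had no PER4 read at 0 h. With the lane term over all libraries these 13 calls became 65, all of them weaker, among them PRX71 in JePs (-1.53, adjusted p = 0.028, edgeR) and jeps (-1.52, adjusted p = 0.046) at 18 h.

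**Figure D4:**
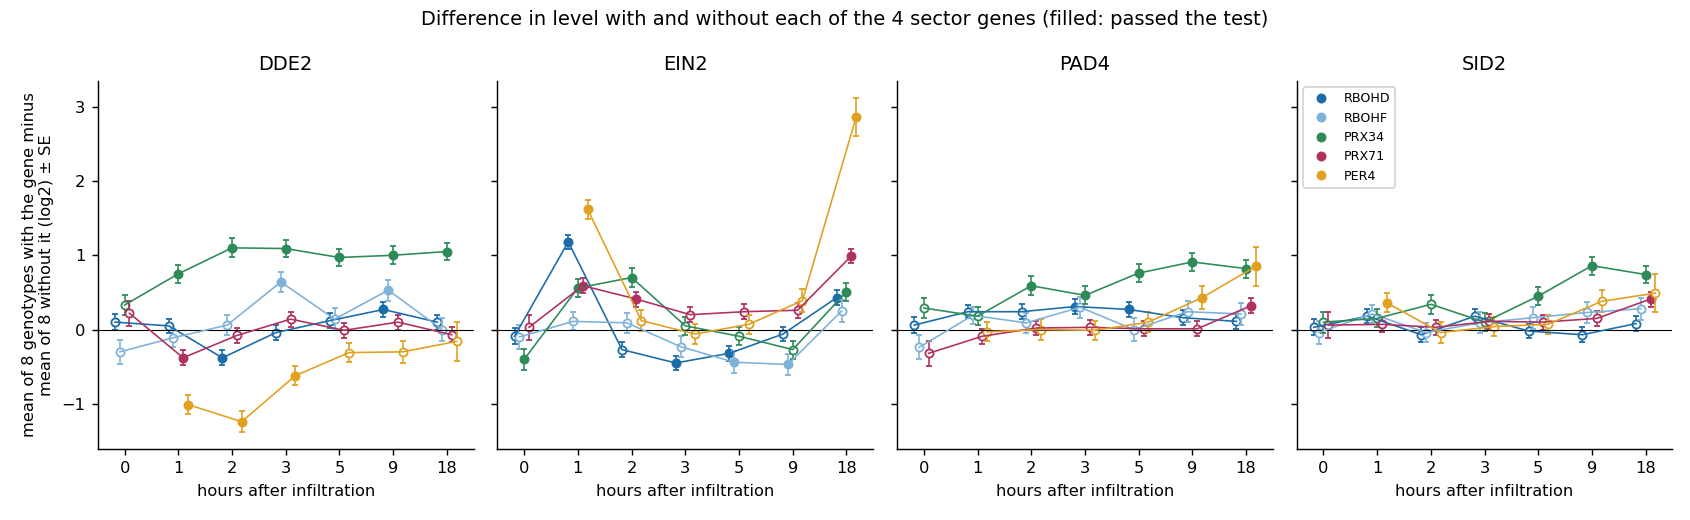
Effect of each sector gene on the level (mean log2 level of the 8 genotypes with the gene minus the mean of the 8 without it, ± SE) against hours after infiltration for the tested genes; filled points passed the test, and PER4 is not drawn at 0 h. PRX34 lies near 1 from 2 h on in the DDE2 panel, RBOHD is highest at 1 h in the EIN2 panel, and PER4 stands high there at 1 h and reaches 2.86 at 18 h.

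PRX71 (chr5:25659257-25661007), the wall peroxidase known from lignification, showed the largest difference in response among the members for which a size and error could be given. Its JEPS libraries read 42.9, 39.5 and 55.3 at 0 h, 8267, 8547 and 12398 at 1 h, 34559, 37985 and 29372 at 5 h and 21726, 28297 and 16288 at 18 h. In fls2 they read 66.3, 32.3 and 53.2 at 0 h, 879, 525 and 887 at 1 h, 2842, 1114 and 2239 at 2 h and 128, 94.4 and 127 at 18 h. The rise in fls2 thus had its highest mean at 2 h and was nearly gone by 18 h, and in the receptor-bearing genotypes it lasted. At each of the 6 times all 48 combinatorial libraries lay above the highest fls2 library, which 2.72%, 6.03%, 10.6%, 10.8%, 5.88% and 2.72% of all tested genes showed.

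The response of PRX71 in JEPS exceeded that in fls2 by 3.8, 3.31, 4.31, 6.31, 7.65 and 7.69 from 1 to 18 h (SE 0.51 to 0.53, largest adjusted p = 3.9e-08, edgeR), and in jeps by 3.46, 2.9, 3.84, 5.90, 6.94 and 6.05; all 12 were called and held under every alternative. Within fls2 it was called above 0 h at all 6 times, at 3.89, 5.32, 5.00, 3.18, 1.81 and 1.18, of which the last was lost with the block (adjusted p = 0.16), without replicate 1 (0.064) and without replicate 2 (0.063). Of the reads on the 73 class III peroxidase genes of the table, not divided by transcript length, PRX71 held 0.576 ± 0.0924% (SD, n = 3) in untouched JEPS leaves, 78.4 ± 1.96% at 3 h and 59.7 ± 4.91% at 18 h, and in fls2 at most 29 ± 8.9%, at 2 h. Of all reads in the JEPS libraries it held 0.000831 ± 0.00018% at 0 h and 0.835 ± 0.108% at 5 h.

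After infiltration the genotypes differed least in PRX71 at 5 h and most at 18 h. At 5 h the highest and lowest of the 16 genotype means, in jEpS and jePS, were 34813 and 25991, a ratio of 1.34, and at 18 h those of jEPS (25630 ± 6816, SD, n = 3) and jeps (7376 ± 1242) differed by a ratio of 3.47. At 18 h the 24 libraries with EIN2 read 10684 to 33460 (median 21047) and the 24 without it 5853 to 20390 (median 10653), with 8 of 8 genotype pairs higher, and the effect of EIN2 was 0.99 (SE 0.10, adjusted p = 2.4e-16, edgeR), where 28.7% of all genes were called. PRX71 was also higher with EIN2 at 1 h (0.59, adjusted p = 1.2e-06) and 2 h (0.41, adjusted p = 0.0012), where 23.8% and 36.4% of all genes were called. At 18 h it was higher with PAD4 (0.32, adjusted p = 0.019) and with SID2 (0.41, adjusted p = 0.0014), and at 1 h it was lower with DDE2 (-0.38, adjusted p = 0.0032), with 0 of 8 pairs higher. The shares of all genes called in these comparisons were 26.7%, 28.8% and 20.9%. The DDE2, PAD4 and SID2 calls were lost without replicate 1 (adjusted p = 0.054, 0.13 and 0.085), the PAD4 call also without replicate 2 (0.14) and the DDE2 call with DESeq2 (0.057). With the block, small effects of EIN2 at 3 h (0.21), 5 h (0.24) and 9 h (0.27), of DDE2 at 3 h (0.14) and of SID2 at 3 h (0.11) and 9 h (0.15) were also called.

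**Figure D5:**
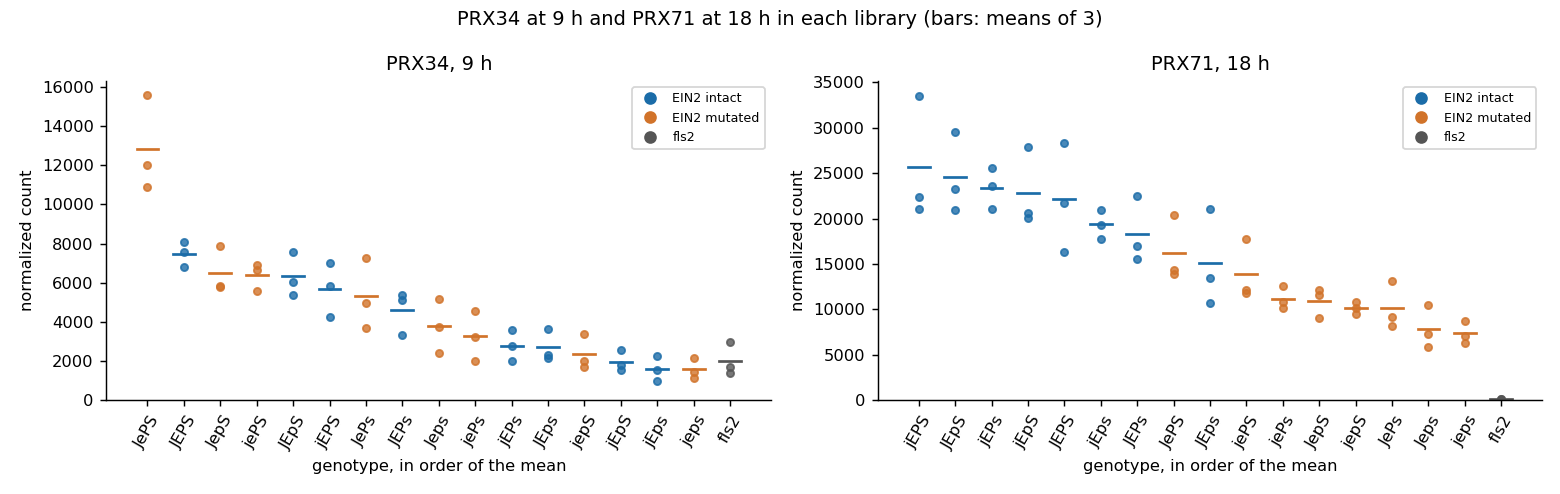
Normalized counts of PRX34 at 9 h and PRX71 at 18 h in every library, by genotype in order of the mean (bars), with color for the state of EIN2. JePS stands above all others for PRX34 at 12822, and for PRX71 the 7 genotypes of highest mean all have EIN2.

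PER4 (chr1:4974021-4975705), a secreted peroxidase, went from no reads in untouched JEPS leaves to its highest level at 1 h. In JEPS it read 0 in all 3 libraries at 0 h, 2952, 2178 and 2457 at 1 h, 396, 115 and 222 at 2 h, 614, 517 and 476 at 3 h, 1017, 682 and 741 at 5 h and 160, 214 and 47.5 at 18 h. Against the 3 reads that an absence over the 3 untouched libraries allows (a normalized count of 3.88), the JEPS level was at least 649-fold higher at 1 h, 64.5-fold at 2 h, 207-fold at 5 h and 30.2-fold at 18 h. In fls2 PER4 read 31.3, 18.8 and 13.2 at 1 h, 3.03, 11.2 and 0 at 2 h and 0 in all 3 libraries at 3 h and 18 h. All 48 combinatorial libraries were above the highest fls2 library at 1, 2, 3, 5 and 9 h, and 47 of 48 at 18 h. Of all tested genes, 2.72%, 6.03%, 10.6%, 10.8% and 5.88% had all 48 above at 1, 2, 3, 5 and 9 h.

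Since most untouched groups had no PER4 read, its fitted differences in response have no usable size or error and only their tests are given. JEPS passed against fls2 at 1 h (adjusted p = 0.04, edgeR), 3 h (0.0084), 5 h (0.019) and 18 h (0.025) and not at 2 h (0.062) or 9 h (0.059), and jeps passed at 3 h (0.013) and 5 h (0.035). At 0 h JEPS and jeps had no PER4 read and fls2 had 1, in replicate 1, so these 6 calls rest on that read. Without replicate 1 no 0 h group compared held a read, and the adjusted p of 1 that each then had says nothing of the response. Of the 6, 5 were also lost in other settings. In JEPS the call at 1 h was lost without replicate 2 (adjusted p = 0.086) or 3 (0.11), with the block (0.064) and with only the libraries compared (0.073), that at 5 h without replicate 3 (0.069), and that at 18 h without replicate 2 (0.082) or 3 (0.072) and with only the libraries compared (0.053). In jeps the call at 3 h was lost without replicate 3 (0.056) and that at 5 h without replicate 2 (0.055) or 3 (0.11) and with only the libraries compared (0.053), and both had an adjusted p of 1 with a lane term on the libraries compared. With the lane term over all libraries, JEPS also passed at 2 h (0.041) and 9 h (0.024) and jeps at 1 h (0.039) and 2 h (0.023). Within fls2 the rise at 1 h was called (3.65, SE 1.76, adjusted p = 0.0059), and not without replicate 2 (0.053) or 3 (0.056).

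The level of PER4 after infiltration, a comparison that needs no 0 h value, differed with the state of EIN2 and DDE2. At 1 h the 24 libraries with EIN2 read 1279 to 7415 (median 2909) and the 24 without it 360 to 2324 (median 972), and 8 of 8 pairs were higher with EIN2 (effect 1.62, SE 0.13, adjusted p = 2.1e-23, edgeR). At 2, 3 and 5 h the EIN2 effect was 0.12, -0.06 and 0.07 and did not pass, and at 18 h it was 2.86 (SE 0.26, adjusted p = 1.5e-25), with libraries at 21.6 to 215 (median 77.8) with EIN2 and 0 to 43.8 (median 11) without it. The EIN2 effect at 1 h exceeded that at 3 h by 1.68 (SE 0.19, adjusted p = 3.6e-14). PER4 was lower with DDE2 at 1 h (-1.01, SE 0.13, adjusted p = 7.9e-11), 2 h (-1.24, SE 0.14, adjusted p = 3.8e-14) and 3 h (-0.62, SE 0.13, adjusted p = 0.00014), with 0 of 8 pairs higher with DDE2 at each. Of all genes, 23.8% and 28.7% were called for EIN2 at 1 and 18 h. For DDE2 the shares were 20.9%, 25.6% and 23% at 1, 2 and 3 h. The EIN2 and DDE2 effects held under every alternative that could be run. At 1 h the means ran from 5204 ± 1929 (SD, n = 3) in jEpS and 4604 ± 632 in jEPS through 2529 ± 392 in JEPS to 591 ± 255 in Jeps.

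PER4 was higher with PAD4 at 9 h (0.43, adjusted p = 0.035, edgeR) and 18 h (0.85, SE 0.26, adjusted p = 0.0082), and with SID2 at 1 h (0.36, adjusted p = 0.046), where 2.19% of all genes were called. For PAD4 at 9 and 18 h the shares were 17.4% and 26.7%. The SID2 call was lost without any 1 replicate (adjusted p = 0.054, 0.11 and 0.37), the PAD4 call at 9 h without replicate 2 (0.4) or 3 (0.085) and that at 18 h without replicate 1 (0.074) or 2 (0.082) and with a lane term on the libraries compared (0.06). With the block, DDE2 at 5 h (-0.32) and 9 h (-0.29), EIN2 at 9 h (0.39) and SID2 at 9 h (0.39) were also called.

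PER5 (chr1:4978922-4980466), the neighbour of PER4 on the opposite strand, had 47 reads in all and at most 3 in a library. It was seen in 22 of 48 combinatorial libraries at 5 h, with 28 reads, in 10 at 3 h, in 4 at 9 h, in 1 each at 1 h and 18 h, and in none at 0 h or 2 h or in fls2. The 8 genotypes without DDE2 held 36 of these reads and the 8 with it 11, a split named after its values were seen; at such counts the fits had no usable error and it was not tested.

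Over the 140 sector comparisons of the 5 tested genes, 44 were called, 34 higher and 10 lower with the intact gene, against 13.8% over all genes. The EIN2 effect at 1 h exceeded that at 3 h in 4 of the 5, by 0.51 (adjusted p = 0.022, edgeR) for PRX34 and 0.38 (adjusted p = 0.041) for PRX71 beside the values above, where 11.9% of all genes were called higher; without replicate 1 or 2 both smaller values missed the threshold (adjusted p = 0.12 and 0.094 for PRX34, 0.29 and 0.11 for PRX71), and without replicate 3 that of PRX34 did (0.056).

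Of the 10 RBOH genes, 9 had reads and 3 were tested, and RBOHD alone was called in JEPS against fls2. Of the 73 class III peroxidases, 16 were tested, with the tested peroxidases described above among them. Of these 16, 8 were called higher in JEPS at 1 or more times, 2 lower, 1 in both directions at different times, and 5 at no time. Of all tested genes, 18.1%, 29.8% and 0.626% were called higher, lower and in both directions over the 6 times. The median difference over the 16 was 0.03 at 1 h and 3.70 at 9 h, beside -0.26 and 0.04 over all genes tested. Beside PER4 and PRX71, the largest rise was that of PER49, at 8.85 (SE 1.59, adjusted p = 0.00068) at 9 h, where it read 4374 ± 621 (SD, n = 3) in JEPS and 4.22 ± 4.23 in fls2, whose libraries held 4 reads. Of 15 tested genes among 18 regulators of RBOHD, 9 were called higher and 2 lower at 1 or more times, and the largest differences were those of the receptor-like kinase CRK2 (3.38, SE 0.57, at 3 h), the cytoplasmic kinase BIK1, which phosphorylates RBOHD (3.16, SE 0.54, at 18 h), and the G protein XLG2 (2.66, SE 0.50, at 1 h). CRK2 read 1516 ± 42.7 in JEPS at 3 h and 181 ± 90.2 in fls2.

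The genes whose level was most like that of each member over the 119 group means, by Pearson's r of log2(mean + 1), were described without a test, since groups of 1 time point share experiments and lanes. For RBOHD they were the myb-like factor AT1G25550 (0.91), the calcium-dependent kinase CPK28 (0.87) and CNBT1 (0.86), and for RBOHF AT2G27500, AT2G28400 and AT3G19970 (0.79 to 0.80). For PRX34 they were a microsomal glutathione S-transferase, AT1G65820 (0.85), the calcium pump ACA10 (0.84) and the glutathione peroxidase GPX8 (0.81). For PRX71 a chitinase family gene, AT2G43620, and the uncharacterized AT3G21351 and AT1G65845 had r of 0.98, and for PER4 a berberine family gene, AT4G20830, CYP71B7 and the kinase AT1G25390 had r of 0.96. Among the members themselves the highest r was 0.83, between PRX71 and PER4.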

How the data were processed

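Counts of reads per gene were deposited by the authors as 1 table, made from 3' Tag-Seq reads aligned to TAIR10 transcripts (Bowtie 0.12.8, per the submitters' processing notes), with no normalization. Each count was divided by its library's 90th percentile (27 to 300, median 85) and multiplied by 300. Genes whose 15th highest count exceeded 25 were tested. All 357 libraries were fitted with 1 mean per group by edgeR 4.0.16 (R 4.3.3; glmQLFit, glmQLFTest), as tested on simulated data; the alternatives, DESeq2 1.42.0 among them, are given in the closing section. With a lane term over all libraries, genes other than these 7 were tested by the Wald form of the test. All 7 genes are named. From each list, the 3 genes called with the largest difference between JEPS and fls2 are named, and for each tested member the 3 genes of highest correlation. The members and lists were chosen with earlier results of these data known.

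Replicates are separate pools of plants. The libraries carry the site labels umn (all of replicate 1) and tsl (all of replicate 3), and replicate 2 changes from umn to tsl within the 5 h groups. Leaving out a replicate thus also changes the mix of sites, and site was not fitted apart from lane. By the study's schedules, libraries of 1 replicate number share their experiments; at the same time point their deviations from group means correlated at 0.28 on average (2856 pairs, 95.8% above 0.1), and 18 of 21 JEPS and fls2 pairs exceeded 0.1. The replicate block was fitted on the libraries compared. The floors for absent reads cover counting error only, while each SE also includes the fitted spread between libraries. Positions are from RefSeq TAIR10.1. Of the mutated genes, DDE2 was lower in every mutant library (at most 371, against at least 630), whereas the ranges of EIN2, PAD4, SID2 and FLS2 overlapped between mutant and other libraries.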

Additional observations from a re-analysis of the deposited data

Results flagged for a closer look

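The EIN2 effect on the level differed between 1 h and 3 h for 4 of the 5 tested genes, by 1.68 for PER4, 1.63 for RBOHD, 0.51 for PRX34 and 0.38 for PRX71 on the log2 scale, in a contrast of the same 8 genotypes with and 8 without EIN2 that was added after the data had been seen. For these and the next values the difference itself was tested by edgeR.

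The response since 0 h, compared between the 8 genotypes with a sector gene and the 8 without it, differed in 19 of 96 comparisons of RBOHD, RBOHF, PRX34 and PRX71 (5.29% over all genes); these too were added after the data had been seen. For PRX34 the response was larger with DDE2 by 0.77, 0.76, 0.64, 0.67 and 0.72 at 2, 3, 5, 9 and 18 h, with EIN2 by 0.97, 1.1 and 0.91 at 1, 2 and 18 h, with PAD4 by 0.62 at 9 h and with SID2 by 0.75 at 9 h and 0.64 at 18 h. For RBOHD it was larger with EIN2 by 1.28 at 1 h and 0.52 at 18 h and smaller with DDE2 at 2 h (-0.48). For RBOHF it was larger with DDE2 by 0.95 at 3 h and 0.83 at 9 h. For PRX71 it was larger at 18 h with EIN2 (0.95) and PAD4 (0.65) and smaller at 1 h with DDE2 (-0.61). The 2 negative effects, of DDE2 on RBOHD and on PRX71, were not called with TMM scaling. Without replicate 1, 2 and 3 in turn, 8, 16 and 7 of the 19 were still called, and those of EIN2 for RBOHD at 1 h, for PRX34 at 1, 2 and 18 h and for PRX71 at 18 h and of DDE2 for RBOHF at 3 h held each time. PER4 could not be fitted in this comparison, since most untouched groups had no read. With the replicate block, 6 more were called, for PRX34 DDE2 at 1 h (0.41), EIN2 at 3 h (0.45) and PAD4 at 5 h (0.48) and 18 h (0.53), for PRX71 EIN2 at 1 h (0.58) and for RBOHF PAD4 at 3 h (0.54), and PAD4 for PRX71 at 18 h was lost (adjusted p = 0.091).

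Individual combinatorial mutants whose response differed from that of JEPS gave 13 values, all of them weaker and none of them in a single mutant. For PRX34 these were jePS at 1 h (-2.04), 2 h (-2.42), 3 h (-1.97) and 18 h (-2.39), JePs at 18 h (-1.91), jepS at 2 h (-2.09) and 18 h (-2.66), jEps at 18 h (-2.04), Jeps at 18 h (-2.06) and jeps at 2 h (-2.62), 9 h (-2.14) and 18 h (-2.79). For RBOHD it was jeps at 1 h (-1.54). Without replicate 1, 2 and 3 in turn, 4, 7 and 0 of the 13 were still called. With the block, jePS at 3 h (adjusted p = 0.059) and JePs at 18 h (0.068) were lost, and RBOHD in JepS at 1 h (-1.49) and PRX34 in jEps at 9 h (-1.89) and Jeps at 2 h (-1.96) were gained.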

How the results depend on the processing

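Of 124 called values of the 5 tested genes, 62 kept their call under every alternative run and none changed direction. Calls were lost in 6 with TMM scaling, 9 with DESeq2, 12 without a filter on low counts, 15 when only the libraries compared were fitted, 7 with the replicate block (which lost or gained no call but those given beside the results), 9 of 84 with a lane term on the libraries compared, 1 with a lane term over all libraries (added after the data had been seen) and 52, 27 and 47 without replicate 1, 2 and 3. Under a filter that also drops genes absent from 50 or more libraries, PER4 left the test and none of the other 108 was lost. On the libraries compared, the lane term could not be fitted for JEPS against fls2, for fls2 against 0 h, for untouched leaves or for some mutants. The 13 weaker responses than in JEPS became 22 without a filter, 26 with DESeq2 and 3 of 350 and 65 with the lane term on the libraries compared and over all, and the 44 sector effects became 67 and 58. Without 1 replicate the calls numbered 11 to 19 for JEPS against fls2, 6 to 10 for jeps against fls2, 7 to 16 for sector effects on the response, 2 to 3 for EIN2 at 1 h against 3 h and 0 to 7 for mutants against JEPS.

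Over all genes, calls of sector effects on the level rose from 47621 to 78919 with the block and fell to 27452 without replicate 1. Those of mutants against JEPS fell from 7648 to 3984 with only the libraries compared, 2019 with the lane term on the libraries compared and 2052 to 3342 without 1 replicate and rose to 24051 with it over all libraries, those of sector effects on the response went from 15606 to 31222 and 29708 with these lane terms and 7146 to 10272 without 1 replicate, and those of EIN2 at 1 h against 3 h from 2742 to 4352 with the first of them and to 1383 and 1794. Calls for JEPS against fls2 fell from 16853 to 9317 without replicate 1, and for jeps from 9774 to 4850 and 6146 without replicate 1 or 3. The 1 gene called between untouched fls2 and JEPS became 3 without a filter. TMM scaling moved the median of all genes in JEPS against fls2 by 0.24 to 0.28 at 1 to 3 h. With TMM scaling all 18 sector effects on the response of these genes were positive (17 of 19 without it), and with DESeq2 33.9% rather than 44.6% of all mutant calls were positive. Counts of PRX33 and PER5 are too low for a test at the filter used.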
